A study of Mus musculus with 24 samples.

Results

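The genes described here encode subunits of potassium, sodium and calcium channels. They are all the genes of the deposited table whose probe set is paired with 1 symbol that begins with Kcn, with Scn and a digit, or with Cacn. These were 121 of the 18820 genes tested, each represented by 1 probe set, and where several measured a gene the brightest on average was taken. The choice used symbols and no difference between groups. Left ventricular RNA of a male mouse was hybridised to each of 24 arrays, the mice being labelled as strain BL6C57 and as wildtype or Per2 KO, here written Per2-/-. Per2-/- mice lack the circadian gene Per2 in the whole body. For the arrays the methods name the wildtype mice as C57BL6 of the Jackson Laboratory and do not call them littermates. If the wildtype and Per2-/- lines differ beyond Per2, that part of a genotype difference cannot be told apart from that of Per2. All mice were anesthetized and catheterized, and the hearts were flushed with cold saline before harvest. Hearts of each genotype underwent sham operation, 30 min of ischemia without reperfusion (I30), 4 cycles of 5 min of ischemia and 5 min of reperfusion (ischemic preconditioning, IP0), or 30 min of ischemia followed by 60 min of reperfusion (I30R60). The 8 groups held 3 arrays each. The titles of the sham arrays read untreated control, while the study's text calls these hearts sham operated, the name used here. If they had no operation, its part in a difference from sham cannot be told apart from that of ischemia. Values are log2 intensities after robust multi-array averaging (RMA), and a difference of 1 on this scale is a factor of 2.

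The heartbeat rests on these channels. Voltage-gated sodium channels carry the upstroke of the ventricular action potential, L-type calcium channels open during the plateau and start contraction, and several potassium currents repolarize the cell and hold its resting potential. Many pore-forming alpha subunits work with auxiliary subunits that set their gating, their amount at the membrane or both. Several cardiac channel genes are known to follow the day, and ATP-sensitive potassium channels are known for opening when a heart muscle cell runs short of oxygen. The study compared the genotypes in order to find what Per2 does in the ischemic heart.

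Tissue markers were checked first. The mean of 7 ventricular muscle markers lay between 12.63 and 12.77 on every array. Atrial Myl7 lay between 5.22 and 11.21 on 4 arrays (wildtype sham 1 and 2, Per2-/- sham 3 and Per2-/- IP0 3) and between 2.79 and 3.73 on the other 20. The 6 lung epithelium markers averaged 3.53 to 4.66 on the 3 wildtype I30 arrays and 2.63 to 3.29 elsewhere. The 6 neutrophil markers averaged 4.68 to 5.68 on the I30R60 arrays, 5.57 on wildtype I30 array 1 and 3.71 to 4.71 on the others. The 4 endothelium markers averaged 8.95 to 9.39 over the arrays, with 8.95 to 9.09 in wildtype I30 and 9.21 to 9.39 in wildtype sham hearts. The 4 smooth muscle markers averaged 6.91 to 8.15 and the 4 measured neuron markers 4.22 to 4.65. The probe set of Per2 did not separate the genotypes in sham hearts, with 5.33, 5.94 and 6.10 in wildtype and 5.69, 5.65 and 5.63 in Per2-/- hearts. In I30 hearts it read 6.44, 6.31 and 5.89 in wildtype and 5.30, 4.94 and 5.04 in Per2-/-, separate groups with a difference of -1.12 that was not called by limma (adjusted p = 0.0643). Where it lies relative to the disrupted part of the gene is not given in the sources used here, so it does not check the genotype labels. In whole tissue a smaller share of a cell type and less RNA per cell cannot be told apart.

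Promoter windows of 3 of the genes are shown because the values below turn on them: Kcne4 was higher after reperfusion in both genotypes, Scn4b was higher in Per2-/- hearts, and Kcnj2 was lower in ischemic wildtype hearts. Each window runs from 250 bases before the RefSeq start to 50 bases after it, on the plus strand of GRCm38.p6. Capitals mark the E-box CACGTG, the element that the circadian activators Clock and Bmal1 are known to bind.
Kcne4, chr1:78816661-78816960: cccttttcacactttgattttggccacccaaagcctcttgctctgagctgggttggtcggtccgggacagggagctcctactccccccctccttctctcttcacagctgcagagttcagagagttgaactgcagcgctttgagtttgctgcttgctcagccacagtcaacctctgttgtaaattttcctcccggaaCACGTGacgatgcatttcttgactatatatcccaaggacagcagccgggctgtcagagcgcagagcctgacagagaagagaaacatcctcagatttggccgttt
Scn4b, chr9:45138374-45138673: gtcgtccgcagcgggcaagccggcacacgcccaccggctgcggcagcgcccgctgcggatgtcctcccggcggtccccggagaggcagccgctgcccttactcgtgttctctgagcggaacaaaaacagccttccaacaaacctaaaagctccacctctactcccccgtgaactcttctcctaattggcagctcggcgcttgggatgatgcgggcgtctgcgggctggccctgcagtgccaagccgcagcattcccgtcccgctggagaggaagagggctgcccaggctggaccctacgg
Kcnj2, chr11:111065914-111066213: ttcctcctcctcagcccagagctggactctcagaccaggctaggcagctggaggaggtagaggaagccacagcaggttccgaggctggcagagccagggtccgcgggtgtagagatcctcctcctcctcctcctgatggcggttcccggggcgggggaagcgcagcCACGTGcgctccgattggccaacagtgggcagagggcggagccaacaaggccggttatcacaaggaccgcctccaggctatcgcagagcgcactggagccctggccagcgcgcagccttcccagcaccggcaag
The E-box begins 54 bases before the start of Kcne4 and 84 bases before that of Kcnj2, and these letters do not occur in the window of Scn4b. Nor do they occur in the windows of the other called channel genes, Kcna5, Cacng6, Kcnj12, Cacna1s, Kcnk13, Kcne1l, Cacng5 and Cacna1e. No window was found for the called genes Kcne1, Kcnk3, Kcnk6, Kcna1, Kcnj11 and Cacna1a. Windows were found for 93 of the 121 channel genes. Of their 126 windows 7 (5.56%) held the E-box, against 7.15% of all 32851 windows. The AP-1 letters TGANTCA, searched on both strands, were in 5 of the 126 (3.97%) and in 7.81% of all, and the cAMP element TGACGTCA in 0 of the 126 and in 1.79% of all. No motif contains another. A match is a description of the letters and not a site of binding.

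Of the 121 channel genes 38 (31.4%) exceeded the median of all table values in wildtype sham hearts, which was 4.47, against 10516 (55.9%) of all genes tested. The other 83 did not. The files give no detection calls, so a value under the median does not show that a transcript is absent. Values of different probe sets depend on their probes and are set here against that median and not against each other. Just above it were Kcna3 at 4.68 and Kcng1 at 4.57, and just below it were Kcnk13 at 4.39 and Kcnj14 at 4.23.

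**Figure D1:**
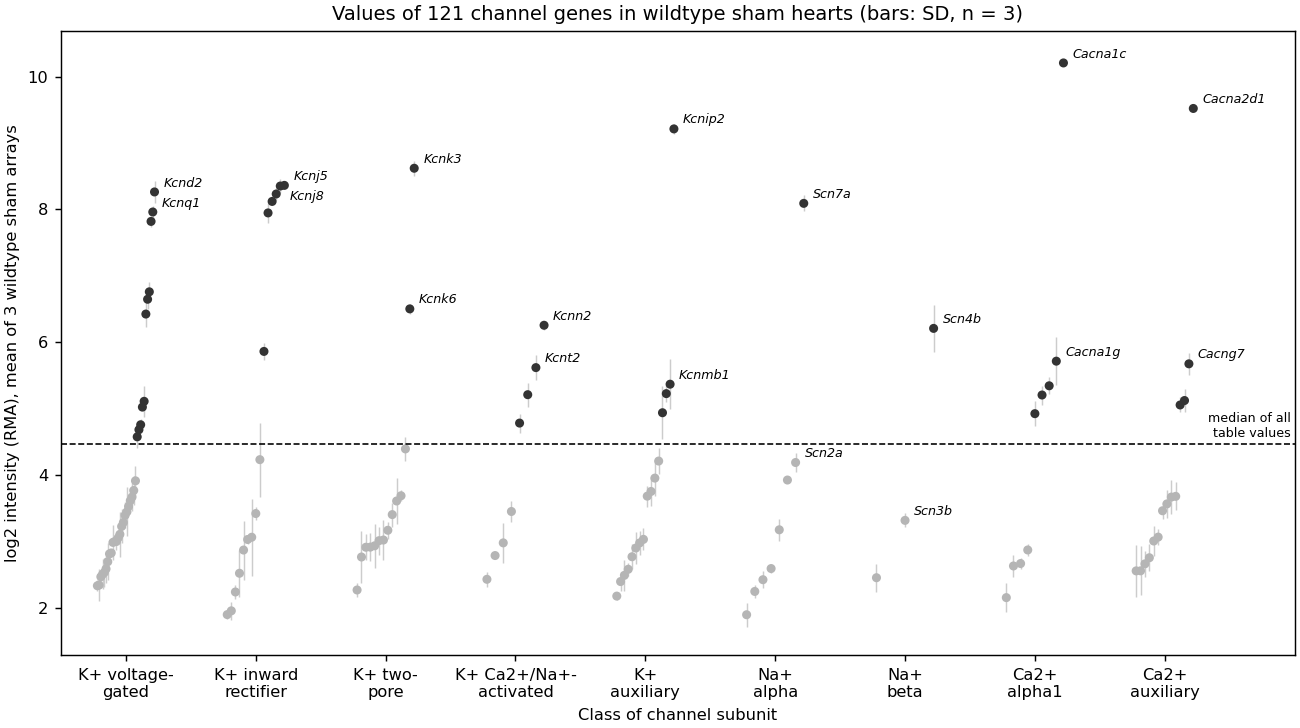
Mean log2 intensity of the 121 channel genes on the 3 wildtype sham arrays (y axis; bars, SD), by class of subunit (x axis), with dark points above and grey points not above the median of all table values (dashed line, 4.47). Values above the median are spread over all 9 classes and reach 10.21 for Cacna1c.

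Calcium channel genes above the median included the pore and the alpha2delta subunit of the cardiac L-type channel. Cacna1c, the pore of that channel, had a mean (SD) of 10.21 (0.05) in wildtype sham hearts, and it ranged from 9.99 to 10.37 over all 24 arrays. Cacna2d1, its alpha2delta subunit, had 9.52 (0.04). The T-type pores Cacna1g at 5.71 (0.36) and Cacna1h at 5.20 (0.14) were above the median, as were Cacna1s and Cacna1a, so that 5 of 9 alpha1 genes were. Of 14 auxiliary genes 4 were above it (Cacng7, Cacnb1, Cacnb4 and Cacna2d1). Cacnb2 was not analysed here, and Cacna1d was represented by a probe set paired with several genes.

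Among sodium channel genes 1 of 8 alpha genes and 1 of 3 beta genes exceeded the median. The alpha gene was Scn7a, which encodes an atypical sodium channel known as a sodium sensor, at 8.09 (0.12). The beta gene was Scn4b, a covalently attached beta subunit, at 6.21 (0.35).

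Potassium channel genes made up the rest. Of the 34 voltage-gated pores 11 exceeded the median. Kcnd2, at 8.26 (0.16), and Kcnd3, at 6.76 (0.15), form the transient outward channel with Kcnip2, which had 9.21 (0.07). A second Kcnd3 probe set averaged 4.40 over the 24 arrays, under the median. The delayed rectifier pores Kcnq1 and Kcnh2 had 7.96 (0.09) and 7.82 (0.09), Kcna5 had 6.65 (0.15), and Kcnv2, a modifying subunit, had 6.42 (0.19). Kcna4, a slow transient outward pore, was under the median at 3.66 (0.21).

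Of the 15 inward rectifier genes 6 were above it. Kcnj2 and Kcnj12, pores of the resting current IK1, had 7.95 (0.15) and 5.86 (0.12). Kcnj11 and Kcnj8, pores of ATP-sensitive channels, had 8.12 (0.03) and 8.35 (0.11). Kcnj3 and Kcnj5, which form the acetylcholine-activated channel of the atria and the nodes, had 8.23 (0.10) and 8.36 (0.06). Both read higher on Per2-/- sham array 3, at 9.14 and 9.29, than on the other sham arrays, which lay between 8.14 and 8.40. That array had the highest Myl7 value, and the part of atrial tissue in it was not tested. On Per2-/- IP0 array 3, also high in Myl7, the values were 8.26 and 8.36.

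Of 14 two-pore genes Kcnk3 at 8.62 (0.11) and Kcnk6 at 6.50 (0.08) exceeded the median, as did 4 of 8 calcium- or sodium-activated genes, with Kcnn2 at 6.25 (0.07), and 4 of 16 auxiliary genes (Kcnip2, Kcnmb1, Kcne1 and Kcnip3). Of a list of 22 genes for the main ventricular currents 18 were measured, and Kcna4 was the 1 among them not above the median. Over the 121 genes the SD within groups, pooled over the 8 groups, had a median of 0.207 and ran from 0.056 to 0.494, against a median of 0.172 over all genes.

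The first question was which channel genes differ between the genotypes under the same treatment. Scn4b was higher and Kcne1 lower in Per2-/- hearts, and in each of the 4 treatments the 3 Per2-/- arrays lay on 1 side of the 3 wildtype arrays for both genes. The tests were limma fits over all 18820 genes with Benjamini-Hochberg adjustment, and a difference was called at an adjusted p under 0.05. In I30 hearts 4 of the 121 genes were called, 2 higher and 2 lower in Per2-/-. The background was 0.664% of all genes, 0.489% higher and 0.175% lower. In I30R60 hearts Kcne1 alone was called, lower in Per2-/-, where 0.175% of all genes were called and 0.106% were lower.

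In sham hearts 0 of the 121 were called by limma (background 0.266%) and 13 (10.7%) had an unadjusted p under 0.05, against 7.38% of all genes. In IP0 hearts 0 were called as well (background 0.0797%) and 14 (11.6%) had an unadjusted p under 0.05, against 5.82% of all genes. The methods' t-test with adjustment also called 0 in each of these comparisons. Among sham hearts the lowest adjusted p was that of Scn4b, 0.107.

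Scn4b encodes the beta4 subunit, which modulates the gating of cardiac sodium channels. In wildtype hearts its values were 6.55, 5.85 and 6.22 after sham operation, 5.62, 5.21 and 5.89 after I30, 6.53, 6.73 and 6.69 after IP0 and 6.34, 6.27 and 5.75 after I30R60. In Per2-/- hearts they were 7.05, 7.31 and 6.87, 7.29, 7.01 and 7.21, 7.19, 7.22 and 7.27 and 7.42, 6.69 and 6.70 in the same order. The groups did not overlap within any treatment, while over all treatments the lowest Per2-/- value, 6.69, lay under the highest wildtype value, 6.73. The difference was 1.59 (SE 0.21, 3.02-fold, adjusted p = 0.000483 by limma) in I30 hearts. It was 0.87 (adjusted p = 0.107 by limma) in sham hearts, 0.58 (0.665) in IP0 hearts and 0.82 (0.15) in I30R60 hearts. In the wildtype I30 group, which has the lowest Scn4b values, the change from sham was -0.63 (SE 0.21) and was not called by limma (adjusted p = 0.106).

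Kcne1 encodes minK, which assembles with Kcnq1 to form the slow delayed rectifier channel. Wildtype values were 5.09, 5.25 and 5.33 after sham operation, 5.25, 5.85 and 5.96 after I30, 5.44, 5.05 and 5.46 after IP0 and 6.17, 5.45 and 5.65 after I30R60. Per2-/- values were 4.39, 4.63 and 4.81, 4.41, 4.21 and 4.17, 4.57, 4.88 and 4.34 and 4.30, 5.02 and 4.80. All 12 Per2-/- arrays lay under all 12 wildtype arrays, the highest of the former at 5.02 and the lowest of the latter at 5.05. Per2-/- minus wildtype was -1.42 (SE 0.21, a ratio of 0.374, adjusted p = 0.00182 by limma) in I30 hearts and -1.05 (SE 0.21, a ratio of 0.483, adjusted p = 0.0455) in I30R60 hearts. In sham and IP0 hearts it was -0.61 and -0.72, with adjusted p of 0.412 and 0.408 by limma. The I30R60 call was lost without any 1 of 5 of its 6 arrays, all but Per2-/- I30R60 array 2 (differences of -1.20 to -0.84, adjusted p 0.0593 to 0.22). Its pore partner Kcnq1 was not called in any of the comparisons.

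The remaining I30 calls were smaller. Kcnj12, an IK1 pore, had 6.19, 6.25 and 5.76 in wildtype and 5.58, 5.43 and 5.30 in Per2-/- I30 hearts, a difference of -0.63 (SE 0.12, adjusted p = 0.0157 by limma). Kcnk3, which encodes the acid-sensitive background channel TASK-1, had 8.47, 8.46 and 8.49 in wildtype and 8.83, 8.76 and 8.78 in Per2-/- I30 hearts, a difference of 0.32 (SE 0.07, adjusted p = 0.026). Neither pair of groups overlapped. The Kcnj12 call was lost without wildtype I30 array 1 or 2 or Per2-/- I30 array 2 or 3 (adjusted p 0.0511 to 0.0839). The Kcnk3 call was lost without any 1 of the 6 arrays except wildtype I30 array 3 (adjusted p 0.0579 to 0.123). With only the I30 groups in the limma model Scn4b was still called (adjusted p = 0.0376), while Kcne1 (0.0713), Kcnj12 (0.272) and Kcnk3 (0.313) were not, and the methods' t-test with adjustment called none of the 4 (adjusted p 0.268 to 0.46). The lung markers Sftpc, with a difference of -2.15 (adjusted p = 0.00513 by limma), and Sftpb, 2 of the 6 on the list, were also lower in Per2-/- than in wildtype I30 hearts, and the part of lung tissue in these calls was not tested.

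Averaged over the 4 treatments, with 12 arrays of each genotype, 8 of the 121 genes were called, 3 higher and 5 lower in Per2-/- hearts. The background was 1.88% of all genes, 1.13% higher and 0.755% lower. This average was added after the values above were seen and uses the same arrays, so it does not add independent support. It gave 0.97 (SE 0.10, adjusted p = 1.03e-05 by limma) for Scn4b and -0.95 (SE 0.11, adjusted p = 1.42e-05) for Kcne1.

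Cacng6, which encodes a gamma subunit of calcium channels, was called over the 4 treatments and in none of them alone. Its wildtype values ran from 3.27 to 3.80, under the median of all table values. Its Per2-/- values were 3.84, 4.05 and 4.30 after sham operation, 4.58, 3.75 and 4.54 after I30, 3.94, 4.25 and 4.64 after IP0 and 4.59, 4.76 and 4.02 after I30R60. The Per2-/- arrays were higher than the wildtype arrays of the same treatment in each case, and over all treatments 1 Per2-/- array, at 3.75, lay under the highest wildtype array. The mean difference was 0.75 (SE 0.11, 1.68-fold, adjusted p = 0.000502 by limma).

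The other 5 genes differed less. Kcnk3 was higher by 0.14 (adjusted p = 0.0248 by limma). The genes lower in Per2-/- hearts were Kcna1, the voltage-gated pore Kv1.1, with a difference of -0.37 (adjusted p = 0.0105), Cacna1s, the L-type pore of skeletal muscle, with -0.29 (0.0341), the two-pore gene Kcnk13 with -0.28 (0.0299) and Kcnj12 with -0.27 (0.0191). In each of the 5 the 12 arrays of one genotype overlapped those of the other. Without the 4 arrays with high Myl7 the calls of Scn4b (0.98, adjusted p = 0.000317), Kcne1 (-0.97, 0.000686) and Cacng6 (0.69, 0.0106) held in the limma fit, and those of the 5 did not (adjusted p 0.0687 for Kcna1, 0.0741 for Kcnk13, 0.0887 for Kcnj12, 0.176 for Kcnk3 and 0.313 for Cacna1s). The Kcnk3 call was also lost without wildtype IP0 array 3 or Per2-/- IP0 array 2 (adjusted p 0.0506 to 0.0524). Leaving out single arrays ended the Cacna1s call in 16 of 24 cases (adjusted p 0.0507 to 0.068), all but wildtype sham 3, I30 2 and I30R60 1 and Per2-/- sham 2, I30 2, IP0 1 and 2 and I30R60 1. It ended the Kcnk13 call in 12 cases (adjusted p 0.0508 to 0.0644), those of wildtype sham 2 and 3, I30 2, IP0 3 and I30R60 1 and 2 and of Per2-/- sham 2 and 3, I30 2, IP0 1 and I30R60 1 and 3.

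**Figure D2:**
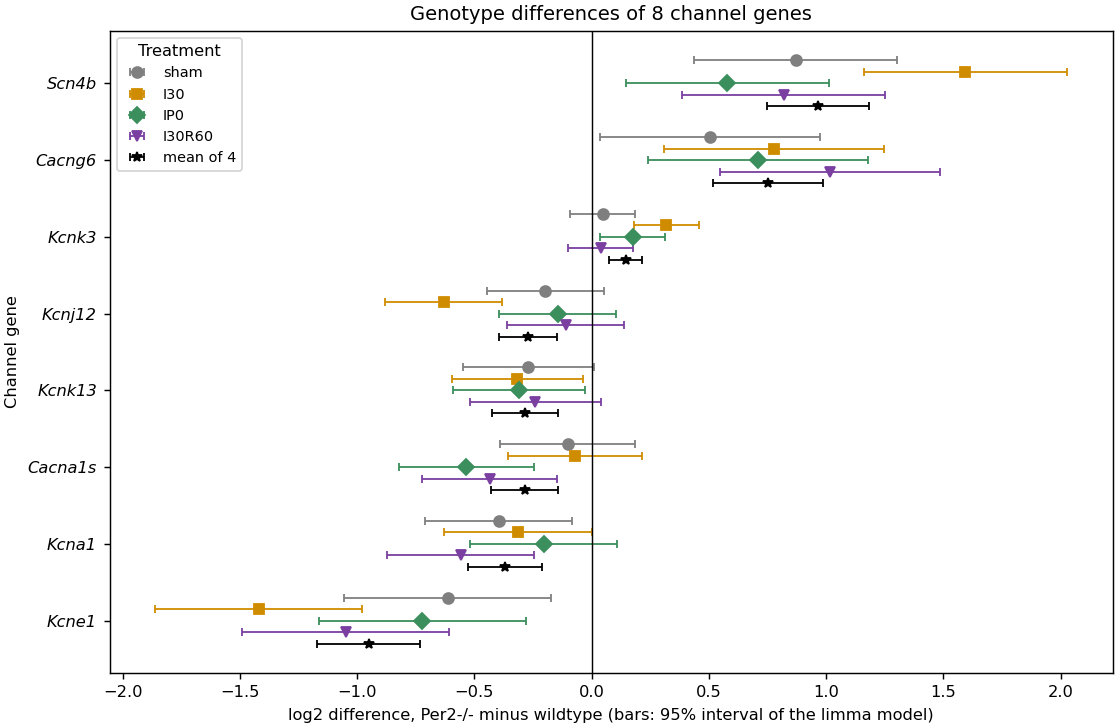
Log2 difference, Per2-/- minus wildtype (x axis), of the 8 channel genes called over the 4 treatments, for each treatment and for their mean (symbols; bars, 95% interval of the limma model). Scn4b, Cacng6 and Kcnk3 lie to the right of 0 and the other 5 genes to the left in every treatment, and the I30 values of Scn4b (1.59) and Kcne1 (-1.42) lie farthest out.

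Ischemia of 30 min was compared with sham operation next. In wildtype hearts 4 of the 121 genes were called, 3 higher and 1 lower, where 2.39% of all genes were called, 1.2% higher and 1.18% lower. The share of the channel genes, 3.31%, was near this background. In Per2-/- hearts limma called 0 of the 121, as it did 0% of all genes, and the methods' t-test with adjustment called 0. An unadjusted p under 0.05 was found there for 7 channel genes (5.79%), against 7.14% of all genes.

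The gene called lower was Kcnj2, which encodes Kir2.1, the main pore of IK1. Wildtype values were 7.81, 8.10 and 7.93 in sham and 7.15, 7.19 and 7.14 in I30 hearts, so that the groups were separate and the I30 arrays lay close together. It fell by 0.79 (SE 0.14, a ratio of 0.58, adjusted p = 0.0105 by limma). Per2-/- values were 7.88, 7.56 and 7.62 in sham and 7.63, 7.65 and 7.79 in I30 hearts, a difference of 0.0012 (SE 0.14, 95% interval -0.30 to 0.30). The difference between the genotypes in this response was 0.79 (SE 0.20), and it was not called by limma (adjusted p = 0.391), so the responses are not shown to differ. The Kcnj2 call remained without any single array of the groups compared, and was lost without the arrays with high Myl7 (a change of -0.78, adjusted p = 0.288), where 1 wildtype sham array is left and is assumed to vary like the other groups. It was also lost with only these groups in the limma model (adjusted p = 0.0751) and under the methods' t-test (adjusted p = 0.236). Of the 4 endothelium markers 1 was called lower by limma on the same arrays, Kdr with a difference of -0.94 (adjusted p = 0.0154), and the part of endothelium in the Kcnj2 value was not tested.

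The 3 genes called higher are all under the median of all table values. Kcne1l, an auxiliary potassium channel gene, had 2.84, 3.15 and 3.09 in wildtype sham and 3.67, 3.64 and 3.58 in wildtype I30 hearts, a rise of 0.60 (adjusted p = 0.041 by limma). Cacng5, an auxiliary calcium channel gene, had 2.54, 2.77 and 2.94 and 3.31, 3.04 and 3.63, a rise of 0.58 (adjusted p = 0.0235). Cacna1e, the pore of the R-type calcium channel, had 2.97, 2.80 and 2.83 and 3.63, 3.18 and 3.32, a rise of 0.51 (adjusted p = 0.0394). None of the 3 pairs of groups overlapped. The Kcne1l call was lost without any 1 of the 6 arrays (adjusted p 0.0633 to 0.177), the Cacng5 call without I30 array 1 or 3 or sham array 1 or 2 (0.0567 to 0.12) and the Cacna1e call without any array but I30 array 2 (0.0579 to 0.15). Quantile normalization ended all 3 calls and kept that of Kcnj2, with a change of -0.72 (adjusted p = 0.036 by limma). Over all 18820 genes it called 104, against 449 in the main fit.

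Low values as a whole were raised in the wildtype I30 arrays. Of the 83 channel genes not above the median 65 had a higher mean in wildtype I30 than in sham hearts, with a median difference of 0.213, while the median over the 38 above it was 0.003. Over all genes tested the medians were 0.161 below and -0.079 above. After quantile normalization the median of the 83 was 0.096. In Per2-/- hearts the median of the 83 was 0.049. The interquartile range of an array ran from 3.76 to 3.87 in wildtype I30, from 3.85 to 3.98 in Per2-/- I30 and from 3.96 to 4.11 in the other groups. The 3 wildtype I30 arrays were also those with the highest lung markers, of which 3 of 6 were called higher by limma, and the part of lung tissue in these values was not tested.

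**Figure D3:**
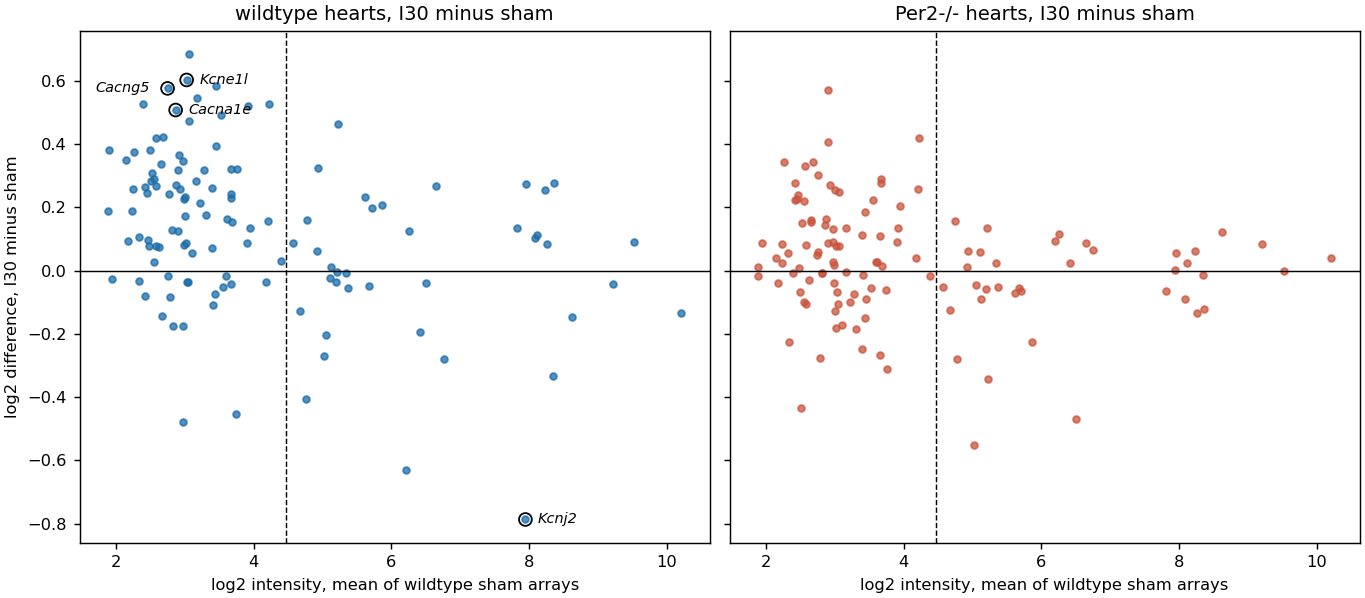
Log2 difference, I30 minus sham (y axis), against the mean log2 intensity in wildtype sham hearts (x axis) for the 121 channel genes in wildtype (left) and Per2-/- hearts (right), with called genes circled and the median of all table values dashed. In wildtype hearts most points left of the dashed line lie above 0 (65 of 83), and Kcnj2, at -0.79, is the lowest point.

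By class, the median I30 difference in wildtype hearts ran from 0.061 for calcium alpha1 genes to 0.222 for sodium alpha genes, and in Per2-/- hearts from 0.005 for voltage-gated potassium genes to 0.093 for sodium beta genes. With both genotypes averaged 0 of the 121 were called by limma (background 1.61%), and the lowest adjusted p was that of Kcnj2, 0.0562. At an unadjusted p under 0.05 were 23 channel genes (19%), against 20.1% of all genes.

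After ischemic preconditioning the limma fit over all groups called 0 of the 121 in wildtype hearts (background 0.85%) and 0 in Per2-/- hearts (background 0.159%). In each 11 (9.09%) had an unadjusted p under 0.05, against 12.1% of all genes in wildtype and 8.23% in Per2-/- hearts. The methods' t-test with adjustment called 0 channel genes in both. The wildtype count depended on the setting: trend and robust moderation called 3 (Kcnj11, Kcnk6 and Kcnj8), centring arrays on their median 2 (Kcnj11 and Cacna1s) and a filter on low values 3 (Kcnj11, Kcnk6 and Cacna1s). Over all 18820 genes centring called 192, against 160 in the main fit, and the counts under the other settings are not given here. With the genotypes averaged, a comparison added after the values were seen, 2 were called, both higher, where 1.94% of all genes were called and 1.02% were higher.

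The first was Kcne4, an auxiliary subunit known to inhibit Kv1 channels and to act on Kcnq1, whose promoter is printed above. It rose by 0.82 (SE 0.18, adjusted p = 0.0216 by limma). The other was Kcnj11, the Kir6.2 pore of the ATP-sensitive channel of ventricular muscle. Its values were 8.11, 8.10 and 8.15 in wildtype sham, 8.52, 8.59 and 8.36 in wildtype IP0, 8.01, 8.22 and 8.41 in Per2-/- sham and 8.32, 8.41 and 8.54 in Per2-/- IP0 hearts. The groups were separate in wildtype hearts and overlapped in Per2-/- hearts, and the mean rise was 0.29 (SE 0.07, adjusted p = 0.0266). The Kcne4 call was lost without wildtype sham array 1, wildtype IP0 array 2 or Per2-/- IP0 array 3 (adjusted p 0.0622 to 0.0671). The Kcnj11 call was lost without sham array 1 or 2 of either genotype, wildtype IP0 array 1 or 2 or Per2-/- IP0 array 2 or 3 (0.0507 to 0.0745). Without the arrays with high Myl7 the changes were 0.68 (adjusted p = 0.367) and 0.29 (0.188).

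After 60 min of reperfusion Kcne4 rose in both genotypes, the largest called change from sham among the channel genes. In wildtype hearts its values were 3.99, 4.33 and 4.30 after sham operation, 4.54, 4.14 and 4.41 after I30, 4.84, 5.32 and 4.82 after IP0 and 6.08, 5.20 and 4.87 after I30R60. The values of Per2-/- hearts were 3.93, 4.15 and 3.98, 4.75, 4.23 and 3.87, 4.72, 4.70 and 5.19 and 5.05, 4.94 and 5.50. Every IP0 and every I30R60 array lay above every sham array, whereas I30 arrays overlapped sham arrays in both genotypes.

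The rise at I30R60 was 1.18 (SE 0.26, 2.26-fold, adjusted p = 0.0125 by limma) in wildtype and 1.14 (SE 0.26, 2.21-fold, adjusted p = 0.0109) in Per2-/- hearts. The genotypes differed in this rise by -0.03 (SE 0.36, adjusted p = 0.997). In wildtype hearts it was the 1 channel gene called (background 2.47%, 1.66% higher). Averaged over the genotypes the rise was 1.16 (SE 0.18, adjusted p = 0.000231), and without the arrays with high Myl7 it was 1.1 (adjusted p = 0.016). The wildtype call was lost without wildtype sham array 1 or I30R60 array 1 (adjusted p 0.0802 to 0.101), and the Per2-/- call without Per2-/- I30R60 array 3 (0.97, adjusted p = 0.0622). Without the arrays with high Myl7 both calls were lost, with rises of 1.08 (adjusted p = 0.328 by limma) in wildtype and 1.12 (adjusted p = 0.063) in Per2-/- hearts. The wildtype call was also lost with only its groups in the model (adjusted p = 0.134), and both under the methods' t-test (adjusted p = 0.409 and 0.175). Neutrophil markers moved with the same arrays: by limma 4 of 6 were called higher in Per2-/- I30R60 hearts, S100a8 by 1.97 (adjusted p = 0.00123), and 0 of 6 in wildtype I30R60 hearts. Their means were 5.68, 4.88 and 4.68 on the wildtype I30R60 arrays, against 4.26 to 4.42 in wildtype sham hearts, and the part of neutrophils in the Kcne4 rise was not tested.

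In Per2-/- hearts 3 of the 121 were called at I30R60, 2 higher and 1 lower, where 4.79% of all genes were called, 2.78% higher and 2% lower. Beside Kcne4, Kcna5 was called higher. It encodes Kv1.5, a pore of the ultrarapid delayed rectifier current. Its values were 6.80, 6.84 and 6.28 in sham and 7.20, 7.19 and 7.21 in I30R60 hearts, separate groups, a rise of 0.56 (SE 0.13, adjusted p = 0.0162 by limma). The low sham value is that of array 3, the array with the highest Myl7. Without it or without I30R60 array 1 the call was lost (rises of 0.38 to 0.56, adjusted p 0.0559 to 0.101). In wildtype hearts the values were 6.49, 6.68 and 6.77 in sham and 7.18, 6.89 and 6.82 in I30R60 hearts, a difference of 0.32 (adjusted p = 0.282). The endothelium marker Kdr, 1 of 4, was called lower in Per2-/- I30R60 hearts, with a difference of -0.69 (adjusted p = 0.0325 by limma), and its part in these values was not tested.

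Kcna1 was the gene called lower. Its values were 4.65, 4.77 and 4.72 in Per2-/- sham and 4.26, 3.98 and 4.32 in Per2-/- I30R60 hearts. It fell by 0.53 (SE 0.15, adjusted p = 0.0495 by limma), and the call was lost without any 1 of the 6 arrays (adjusted p 0.0603 to 0.191). In wildtype hearts the groups overlapped, with sham array 2 at 4.87 and I30R60 array 1 at 4.88, and the difference was -0.36 (adjusted p = 0.277).

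With both genotypes averaged 6 of the 121 were called at I30R60, 3 higher and 3 lower, where 9.34% of all genes were called, 4.29% higher and 5.05% lower. The channel genes' share, 4.96%, was under that of all genes. Higher were Kcne4, Kcna5 by 0.44 (adjusted p = 0.00433 by limma) and Kcnk6, a two-pore gene also known as TWIK-2, by 0.37 (adjusted p = 0.0222). The genes called lower were Kcna1 with a difference of -0.44 (0.0104), Cacna1a, the P/Q-type calcium channel pore, with -0.43 (0.021) and Kcnj2 with -0.34 (0.04).

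Kcnk6 values were 6.46, 6.45 and 6.59 in wildtype sham, 6.90, 7.01 and 7.17 in wildtype IP0 and 6.95, 7.15 and 6.81 in wildtype I30R60 hearts, so that sham arrays were lowest. The Per2-/- values were 6.84, 6.88 and 6.39 in sham and 6.90, 6.95 and 7.10 in I30R60 hearts. Cacna1a values were 5.08, 4.71 and 4.97 in wildtype sham and 4.76, 4.52 and 4.54 in wildtype I30R60 hearts, and 5.22, 4.85 and 4.89 in Per2-/- sham and 4.59, 4.33 and 4.38 in Per2-/- I30R60 hearts. For Cacna1a the groups were separate in Per2-/- hearts and overlapped in wildtype hearts.

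Of these 6, Kcne4 alone was called by limma both without any single array and without the arrays with high Myl7, where Kcna1 (-0.45, adjusted p = 0.0705), Cacna1a (-0.48, 0.0809), Kcna5 (0.28, 0.121), Kcnj2 (-0.35, 0.194) and Kcnk6 (0.25, 0.321) were not. The Cacna1a call was also lost without sham array 1 of either genotype (adjusted p 0.0619 to 0.062). The Kcnk6 call was lost without wildtype sham array 1, Per2-/- sham array 3, wildtype I30R60 array 2 or Per2-/- I30R60 array 3 (0.0519 to 0.0624). The Kcnj2 call was lost without wildtype sham array 2 or 3, Per2-/- sham array 1 or 3, wildtype I30R60 array 1 or Per2-/- I30R60 array 1 or 3 (0.0528 to 0.109).

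**Figure D4:**
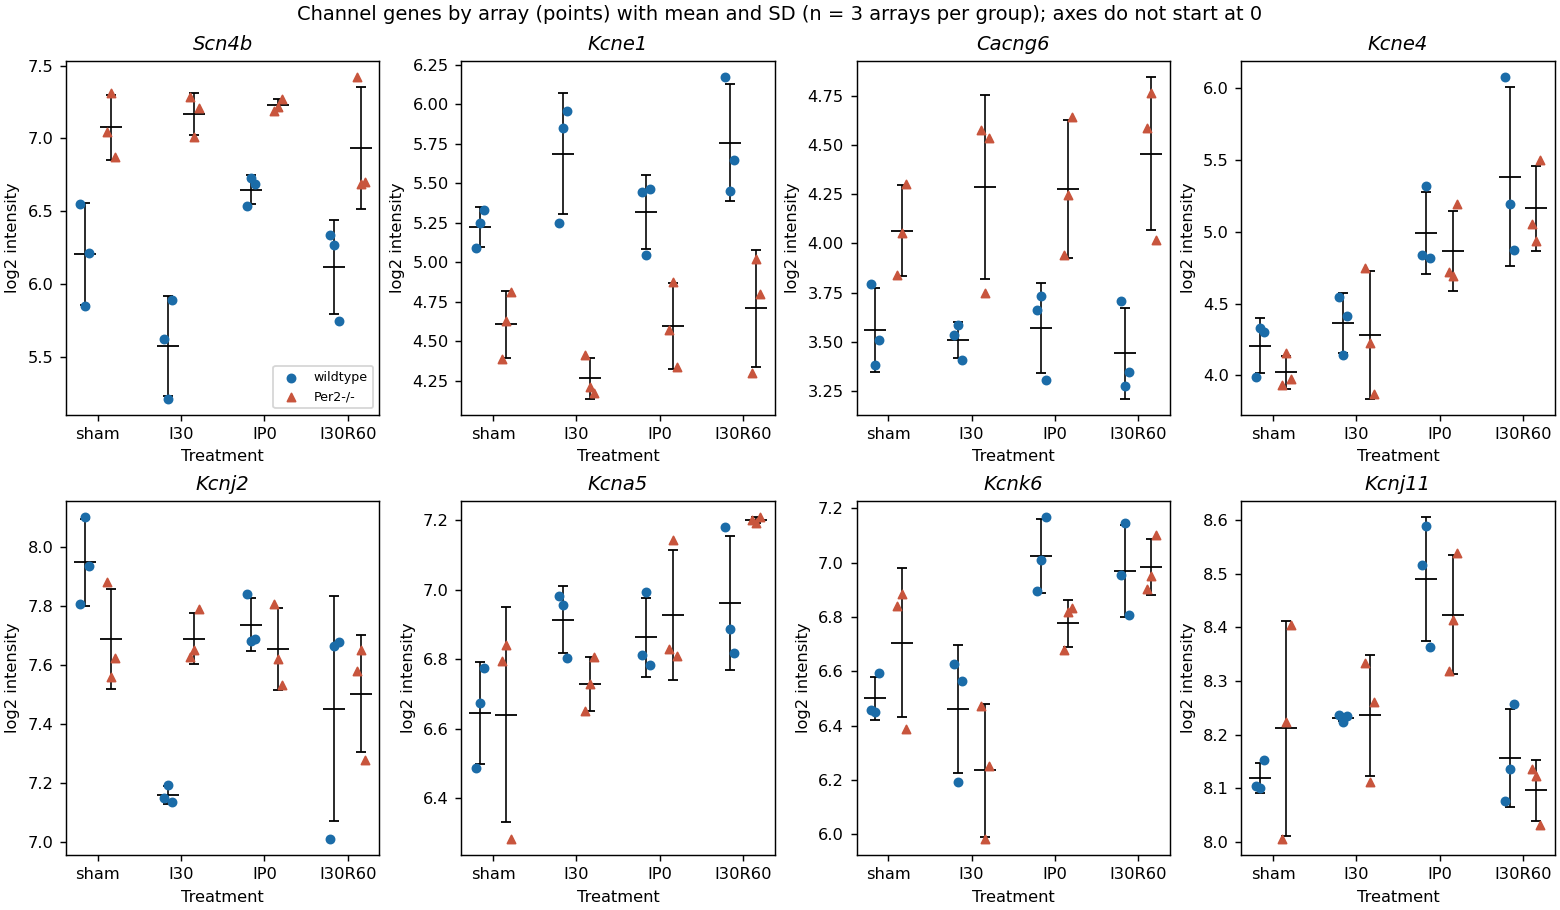
Log2 intensity (y axis) of 8 channel genes on each array (points; circles, wildtype; triangles, Per2-/-) by treatment (x axis), with the mean and SD of each group of 3 as black bars. Scn4b and Kcne1 separate the genotypes in every treatment, Kcne4 is higher after IP0 and I30R60 than after sham operation in both, and Kcnj2 is lowest on the 3 wildtype I30 arrays together with 1 wildtype I30R60 array at 7.01.

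Genes whose treatment response differs between the genotypes were sought with interaction terms. Limma called 0 of the 121 for I30, IP0 and I30R60, as it called 0% of all genes in each. At an unadjusted p under 0.05 were 16, 12 and 7 channel genes (13.2%, 9.92% and 5.79%), against 7.1%, 4.81% and 5.49% of all genes. The lowest adjusted p was 0.391 (Kcnj2) for I30, 0.927 (Kcnh1) for IP0 and 0.491 (Scn3b) for I30R60. The I30 term was 0.72 (SE 0.29, adjusted p = 0.64) for Scn4b and -0.81 (SE 0.30, adjusted p = 0.572) for Kcne1. On simulated data of 18820 genes with the spread of these arrays the I30 interaction test recovered 64% of 2-fold and 26% of 1.5-fold differences. Many genes were changed at once in the simulation, which eases the adjustment, whereas 0% of all genes were called here. These rates may therefore be too high for the real test. Even in the simulation, differences of the size seen for these genes were often not detectable with 3 arrays a group.

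The spread of the genes of the main ventricular currents differed from gene to gene. Over all 24 arrays Cacna2d1 ranged from 9.38 to 9.75, Kcnip2 from 8.94 to 9.42, Kcnd2 from 8.05 to 8.55, Kcnd3 from 6.26 to 6.94, Kcnj8 from 7.90 to 8.47 and Scn7a from 7.77 to 8.33. Wider ranges were those of Kcnq1, 7.44 to 8.41, and Kcnh2, 7.18 to 8.29. Of the 18 measured genes of this list Scn4b, Kcne1, Kcnj2, Kcnj12, Kcnk3 and Kcna5 were called in at least 1 of the 13 comparisons of groups, and Kcnj11 in an average over genotypes. The share of all genes called in at least 1 of the 13 was not computed, so no excess can be read from these names.

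**Figure D5:**
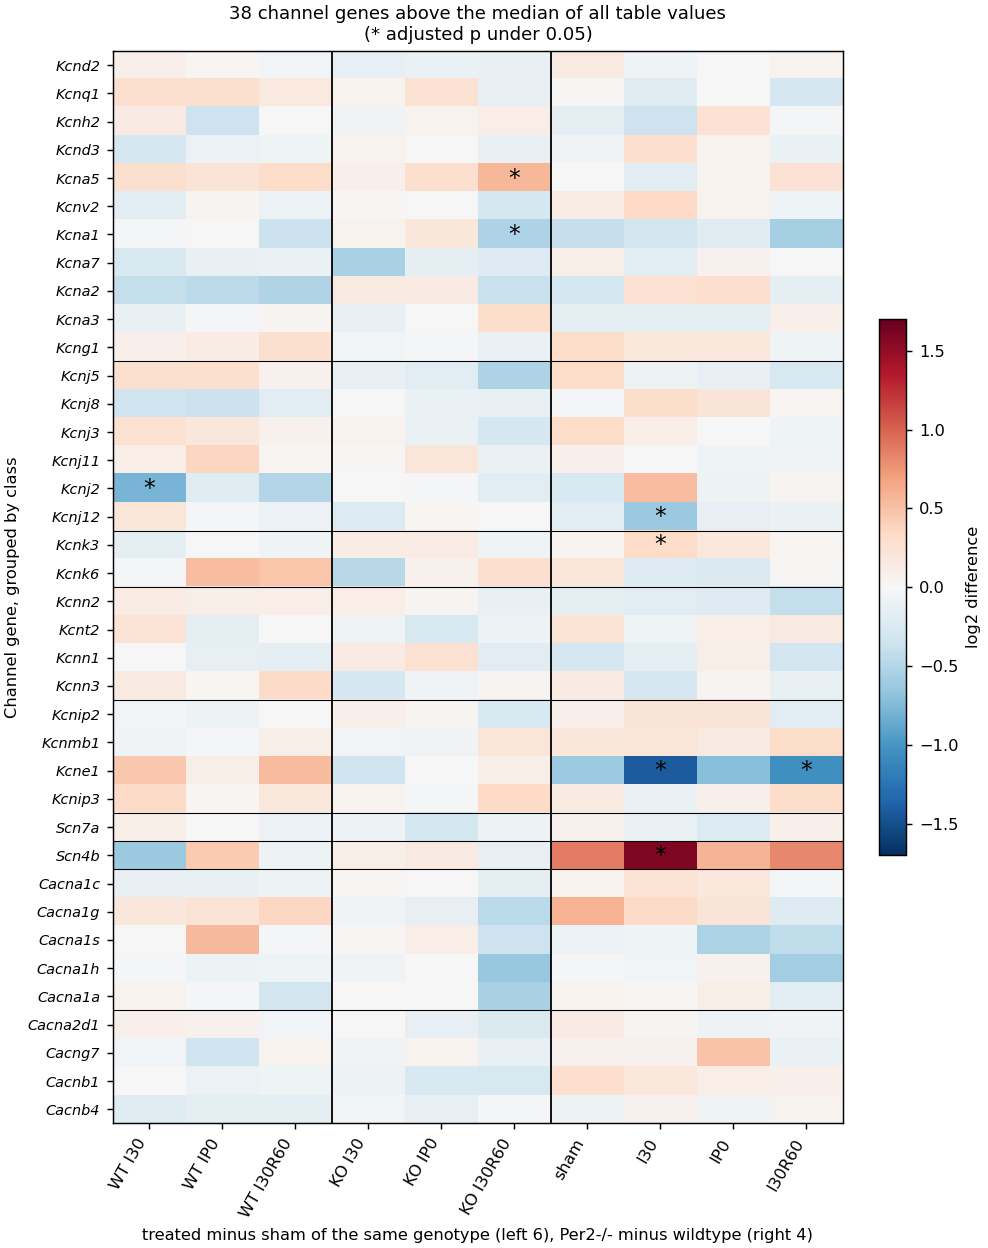
Log2 differences (colour) of the 38 channel genes above the median (rows, grouped by class) in 10 comparisons (columns): treated minus sham in wildtype (WT) and Per2-/- (KO) hearts, and Per2-/- minus wildtype in each treatment. Asterisks mark an adjusted p under 0.05, and most cells are pale, with Scn4b and Kcne1 standing out in the right 4 columns and Kcnj2 in the first.

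Partners of these channels were described from a list of 69 genes for pumps, exchangers, gap junctions, anchoring proteins and regulators, of which 57 were measured. By limma 0 of 57 were called at I30 in either genotype and 0 between genotypes. Gem and Rrad, small GTPases known to inhibit L-type calcium channels, were called at I30R60 in both genotypes. Gem values were 6.07, 6.30 and 6.19 in wildtype sham and 7.89, 7.52 and 7.93 in wildtype I30R60 hearts, a rise of 1.60 (adjusted p = 1.26e-05 by limma). The Per2-/- values were 6.56, 6.40 and 6.30 in sham and 8.28, 7.45 and 7.83 in I30R60 hearts, a rise of 1.43. Sham and reperfused arrays were separate in both genotypes.

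Rrad rose by 1.12 (adjusted p = 0.0153 by limma) in wildtype and by 1.37 (adjusted p = 0.00226) in Per2-/- hearts. Cav3, the muscle caveolin, rose by 0.51 (adjusted p = 0.0029) in wildtype hearts, and Trpm4, a calcium-activated cation channel, fell by 0.56 (adjusted p = 0.0238) in Per2-/- hearts, so that 3 of 57 were called at I30R60 in each genotype. The background there was 2.47% of all genes in wildtype and 4.79% in Per2-/- hearts, and the partners' share in Per2-/- hearts was near it. At IP0 2 of 57 were called in wildtype hearts (background 0.85%), Gem higher by 0.78 (adjusted p = 0.0367) and Fxyd5, a regulator of the sodium pump, lower with a difference of -0.57 (adjusted p = 0.0114), and 0 in Per2-/- hearts. Klf15, a clock-controlled factor known to regulate Kcnip2 in mouse heart, had 7.50, 7.81 and 7.71 in wildtype sham and 8.04, 8.34 and 8.004 in wildtype I30 hearts, a difference of 0.45 that was not called by limma (adjusted p = 0.169).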

How the data were processed

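Per the labels, RNA was hybridised to Affymetrix mouse gene arrays, and the deposited values, log2 intensities, were made by the authors with RMA in Partek software; the genome build behind the probe sets is not given in the sources used here. The array version differs between the labels and the methods (2.1 ST and 1.1 ST). Having 3 arrays per group limits the precision. Arrays are taken as separate mice, as the methods describe them.

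Of 35555 probe sets 21218 had 1 gene symbol and were used, 1881 had several and 12456 had none listed. The highest probe set per gene left 18820 genes. limma 3.58.1 in R 4.3.3 fitted the 8 group means to the 24 arrays together, leaving 16 residual degrees of freedom, with default moderation and Benjamini-Hochberg adjustment over all genes. There were 13 comparisons of groups and 4 averages added after values were seen, and comparisons with sham share its arrays. No filter on low values was applied. The channel genes, marker lists and partner list were chosen with earlier results of these data known. Genes were named if called, among the 20 highest in wildtype sham hearts, nearest the median, on the list of ventricular currents, or, for partners, called by size, with Klf15. Cacng6, Cacna1a, Cacna1s, Cacna1g, Cacna1h, the auxiliary genes above the median and the genes with the lowest interaction p were named after their values were seen. On simulated data the I30 comparison in wildtype hearts recovered 94% of changes of 2-fold and 46% of those of 1.5-fold, with 10 unchanged genes called, among 18820 genes. RefSeq promoter windows were searched, and figures drawn, in Python 3.11.15 with pandas 2.3.3 and matplotlib 3.10.9. Alternatives covered the arrays in the model, moderation, scaling, a filter on low values, the probe set, a replicate block (statmod 1.5.0), the methods' t-test and each array left out. Of 8 probe sets shared by a channel gene and another gene none was called by limma in the 13 comparisons (lowest adjusted p = 0.0912).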

Additional observations from a re-analysis of the deposited data

How the results depend on the processing

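All 29 differences of single channel genes that the text calls kept their direction under every alternative run. Of these 4 kept their call under all alternatives run for them: Scn4b, Kcne1 and Cacng6 between the genotypes over 4 treatments, and Kcne4 at I30R60 over both genotypes. All 4 are averages added after values were seen, and the methods' t-test was not run for averages. For the average over 4 treatments the groups compared are all 8, so that alternative repeats the main fit. The filter on low values left out Cacng6. Counts of called channel genes moved more. With only the groups compared in the model they were 0 (against 4) for I30 and 0 (against 1) for I30R60 in wildtype hearts, 1 (against 4) between genotypes at I30, 0 (against 1) between genotypes at I30R60 and 1 (against 2) for IP0 over both genotypes. Trend and robust moderation gave 3 (against 0) for IP0 and 2 (against 1) for I30R60 in wildtype hearts, 2 between genotypes at I30R60 and 1 (against 0) for I30 over both genotypes. Centring arrays on their median gave 2 for IP0 in wildtype hearts and 0 between genotypes at I30R60, and quantile normalization gave 1 for I30 in wildtype hearts and 0 between genotypes at I30R60. Over all 18820 genes centring called 192 (against 160) for IP0 in wildtype hearts and 22 (against 33) between genotypes at I30R60. Quantile normalization called 104 (against 449) for I30 in wildtype hearts and 24 between genotypes at I30R60. Counts over all genes under the other settings of the limma fit are not given here. A filter keeping genes above the median gave 1, 3 and 2 for I30, IP0 and I30R60 in wildtype hearts, 6 (against 3) for I30R60 in Per2-/- hearts and 1 for I30 over both genotypes. The methods' t-test, adjusted, called 0 channel genes in each of the 10 comparisons of 2 groups, and 0 to 3 of all genes. Without the 4 arrays with high Myl7 the counts were 0 for I30 and I30R60 in wildtype hearts, 0 for I30R60 in Per2-/- hearts, 0 between genotypes at I30R60, 3 (against 8) over 4 treatments, and 0 (against 2) for IP0 and 2 (against 6) for I30R60 over both genotypes. The cause was not tested, beyond the fewer arrays or genes that some alternatives hold.

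Leaving out 1 array at a time gave 1 to 4 called channel genes for I30 and 0 to 2 for I30R60 in wildtype hearts, 1 to 3 for I30R60 in Per2-/- hearts, 2 to 4 between genotypes at I30, 0 to 1 between genotypes at I30R60 and 5 to 7 over 4 treatments. It gave 0 to 2 for I30, 0 to 2 for IP0 and 4 to 8 for I30R60 over both genotypes, and 38 to 39 channel genes above the median. The replicate numbers were not taken as pairs: deviations from group means correlated by 0.0203 between arrays of the same number and by -0.0101 between others, and in 1 of 28 pairs of groups all correlations of like numbers exceeded 0.1. On the other side, 19 of 24 arrays correlated best with one of their own number. What the numbers stand for is not given in the sources used here. With the number as a replicate block 0 channel genes (against 1) were called between genotypes at I30R60, 3 (against 4) for I30 in wildtype hearts and 2 (against 3) for I30R60 in Per2-/- hearts. With 3 arrays a group, changes of 1.5-fold were often not detectable.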
